A study of Mus musculus with 30 samples.

Results

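Fatty acid uptake, binding and activation in adipocytes was followed through 10 genes in 3T3-L1 cells exposed to quizalofop-p-ethyl. The genes were chosen by name: the extracellular lipase Lpl, the membrane transporters Cd36, Slc27a1 and Slc27a4, the cytosolic carriers Fabp4 and Fabp5, and the long-chain acyl-CoA synthetases Acsl1, Acsl3, Acsl4 and Acsl5. The choice was made with earlier results of these data known. These genes are 10 of the 53350 named genes in the expression table. It holds 62266 gene features in all once unnamed assembled loci are counted. All 10 were measured, and all 10 passed the filter on low values.

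Quizalofop-p-ethyl (QpE) is a herbicide ester that blocks acetyl-CoA carboxylase in grasses. RNA was sequenced from 30 cultures, in 6 groups of 5, of the murine preadipocyte model 3T3-L1, whose fibroblast-like cells can be turned into fat cells in a dish. The groups were control cultures and cultures given QpE at 0.05 mM, which is 50 µM, each labelled 6 h, 24 h or 12 days. Every group, controls included, had been switched to a differentiation medium with 3-isobutyl-1-methylxanthine and insulin before the exposure began, and every culture is labelled as differentiated. The vehicle of the control cultures is not given in the sources used here, and a dexamethasone positive control that the protocol mentions is not analysed here. The protocol describes a course of medium changes that ends sooner than 12 days, so the 12 day groups are named only as their labels name them. Culture replicates carry the numbers 1 to 5 within each group, and nothing says whether equal numbers in different groups mark a shared origin. The p-values therefore measure the spread between cultures of 1 cell line.

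Lipoprotein lipase frees fatty acids from circulating triglyceride outside the cell. CD36 and the fatty acid transport proteins bring them across the plasma membrane, the fatty acid binding proteins carry them through the cytosol, and acyl-CoA synthetases attach coenzyme A so that they can be stored as triglyceride or burned. Several of these genes are classic targets of PPARγ, the transcription factor that drives fat cell formation, and Fabp4 and Fabp5 are among the most abundant transcripts of mature fat cells.

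Expression is given as FPKM, the number of fragments per kilobase of transcript scaled to the mapped fragments of the library, summed over the transcripts of a gene. FPKM is per length, so levels of different genes can be set side by side. Differences are on the log2(FPKM + 1) scale, which understates changes of low genes, and were tested with limma between the 5 cultures of each group, with Benjamini-Hochberg adjustment over all 18035 features tested. The word rose or fell is used only where the adjusted p was under 0.05. The libraries held an estimated 9500000 to 17500000 fragments each, from the size of the smallest steps in the FPKM values. In bulk RNA of this kind, fewer cells of a type and less RNA per cell cannot be told apart.

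Fat cell markers were present at 12 days and scarce before. The summed FPKM of 7 fat cell markers, of which 6 were tested, ran from 27.5 to 79.3 in the 6 h cultures, from 40.6 to 182 in the 24 h cultures, from 307 to 2460 in the 12 day controls and from 786 to 4170 in the 12 day QpE cultures. The sum of 7 fibroblast markers was 4440 or more in every 6 h and 24 h culture, between 5580 and 6580 in the 12 day controls, and between 513 and 3000 in the 12 day QpE cultures. Macrophages, endothelium and muscle also make Cd36, Fabp4 or Lpl. The macrophage marker sum was at most 6.95, with Ptprc, Adgre1 and Itgam at 0.031 or less. Cd68 reached 5.35 FPKM and Cd14 4.64 FPKM. Mean Cd68 was 0.548 at 24 h and 2.27 at 12 days in controls, and 0.503 and 3.53 in QpE cultures. Of 2 macrophage markers tested, 1 passed as higher at 12 days than at 24 h in each arm. Over all features 8.11% were higher in controls and 11.8% in QpE cultures. The endothelial sum was at most 0.633 and the liver sum at most 0.937. The muscle sum was at most 3.04, at 6 h, with Acta1 reaching 3.04 FPKM, while Myog, Myod1 and Myh4 were at 0 in all 30 libraries. Cultures 3 and 4 stood apart. Among the controls they had the lowest Fabp4, Fabp5, Acsl1 and Cd36 at 24 h and at 12 days. Among the 12 day QpE cultures they were lowest too in Fabp4, Fabp5, Acsl1 and, with unnamed transcripts counted, Cd36. At 6 h they had the lowest Acsl1 in both arms. At 24 h, however, QpE culture 5 was lowest in Fabp4, Fabp5 and Acsl1.

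Most of the 10 genes passed in a comparison of times, and 2 passed between QpE and control, both at 12 days. In controls, 1 gene rose and 2 fell from 6 h to 24 h, against a background of 5.62% of features higher and 6.79% lower. From 24 h to 12 days 4 rose and 1 fell, against 8.11% higher and 12.3% lower. In QpE cultures 4 rose and 1 fell from 6 h to 24 h, where 6.58% of features were higher and 6.25% lower, and 6 rose and 1 fell from 24 h to 12 days, where 11.8% were higher and 17.5% lower. These counts use the transcripts that the table assigns to a gene by name. For Lpl, Cd36 and Slc27a1, sums with unnamed transcripts are given as well.

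QpE against control at 12 days gave 2 genes higher, Fabp5 and Acsl4, and 0 lower. The background in that comparison was 2.13% higher and 2.73% lower, or 384 and 493 features, and rescaling to TPM changed that split to 166 and 527. The median difference over the 10 genes was +0.66 on the log2 scale, against -0.01 over all features. It was +0.37 when unnamed transcripts were joined to their genes. The genes were chosen with earlier results of these data known, so these medians and counts are a description and no test of the set. At 6 h, 0 of the 10 genes were called in either direction by limma, 0 had an unadjusted p under 0.05, and the background was 0.00554% higher and 0% lower. At 24 h, 0 were called in either direction and 0 had an unadjusted p under 0.05, with a background of 0.0111% higher and 0.00554% lower. Fits that joined unnamed transcripts and blocked on replicate number gave 1 or 2 genes under that unadjusted level at 24 h, depending on the join, and also 0 calls. Over all features 951 of 14616 or 976 of 14092 were higher at that unadjusted level in those fits, and 903 or 917 lower. The QpE difference at 12 days was then set against the QpE difference at 24 h with an interaction term. That test called 0 of the 10 genes in either direction, against 0.0111% of features higher and 0.0166% lower. Without adjustment 2 genes, Slc27a1 and Acsl4, had a p under 0.05, both with a positive difference. At that unadjusted level 979 of 18035 features were higher and 1395 lower. The effect of QpE at 12 days was therefore not shown to differ from that at 24 h for any of them.

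**Figure D1:**
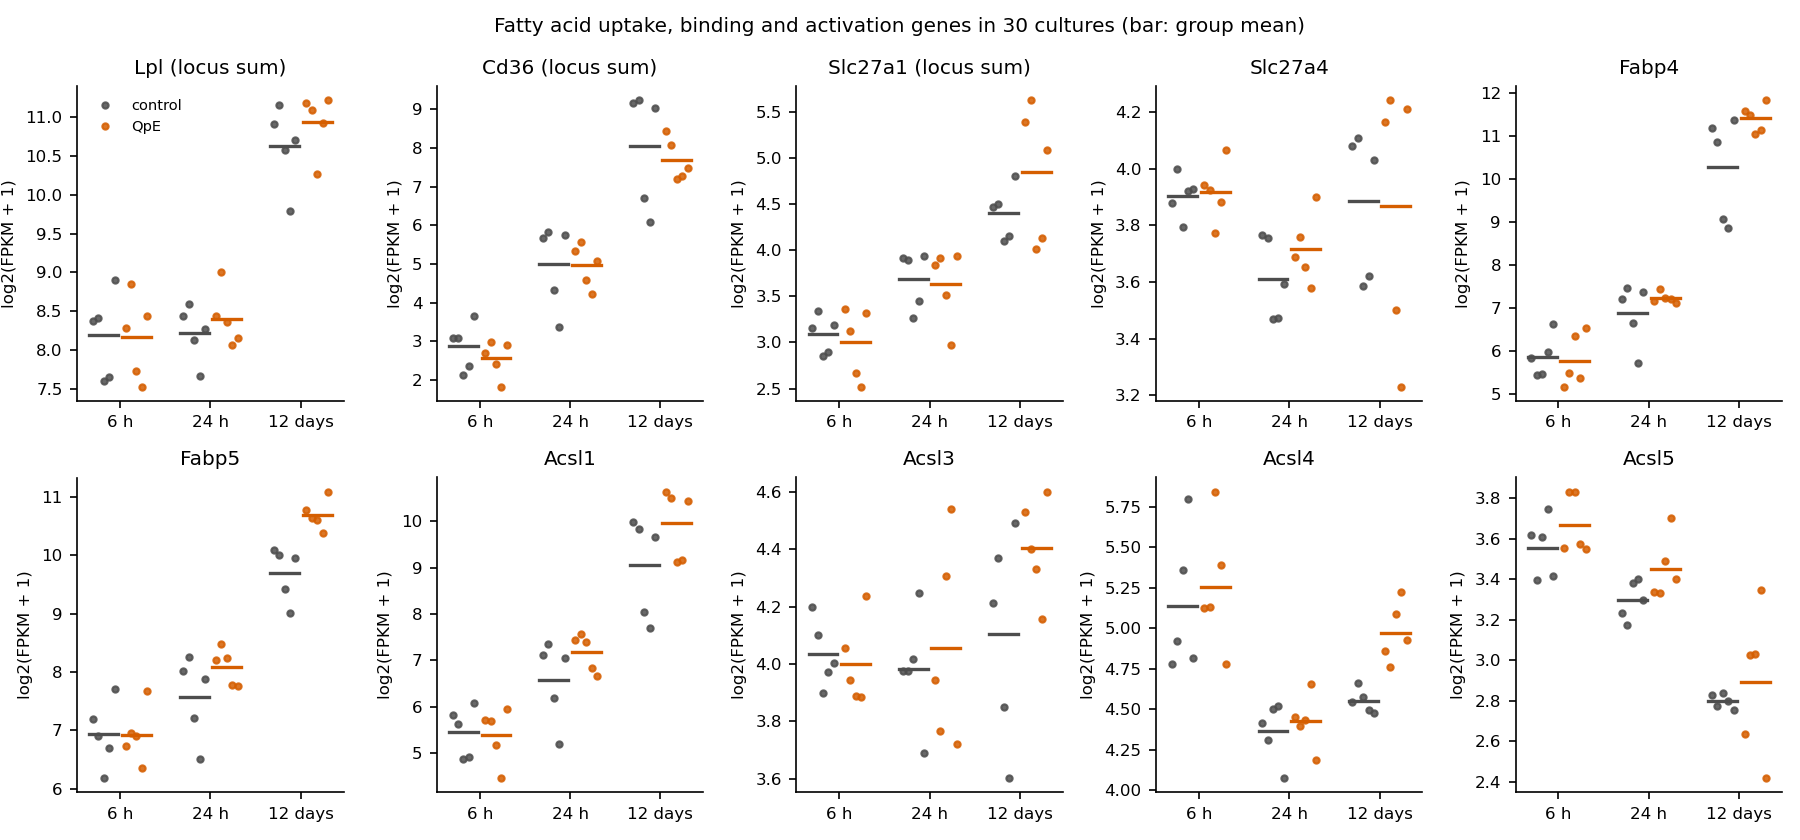
Each panel plots 1 gene as log2(FPKM + 1) in the 30 cultures, by treatment and time, with a point per culture and a bar at the group mean; the vertical scale differs between panels, and Lpl, Cd36 and Slc27a1 are shown as locus sums that include unnamed transcripts. Lpl, Cd36, Fabp4, Fabp5 and Acsl1 climb to 12 days, Acsl5 declines, and the 12 day QpE points of Fabp5 (1341 to 2172 FPKM) and Acsl4 (26.1 to 36.3 FPKM) all lie above their controls.

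**Figure D2:**
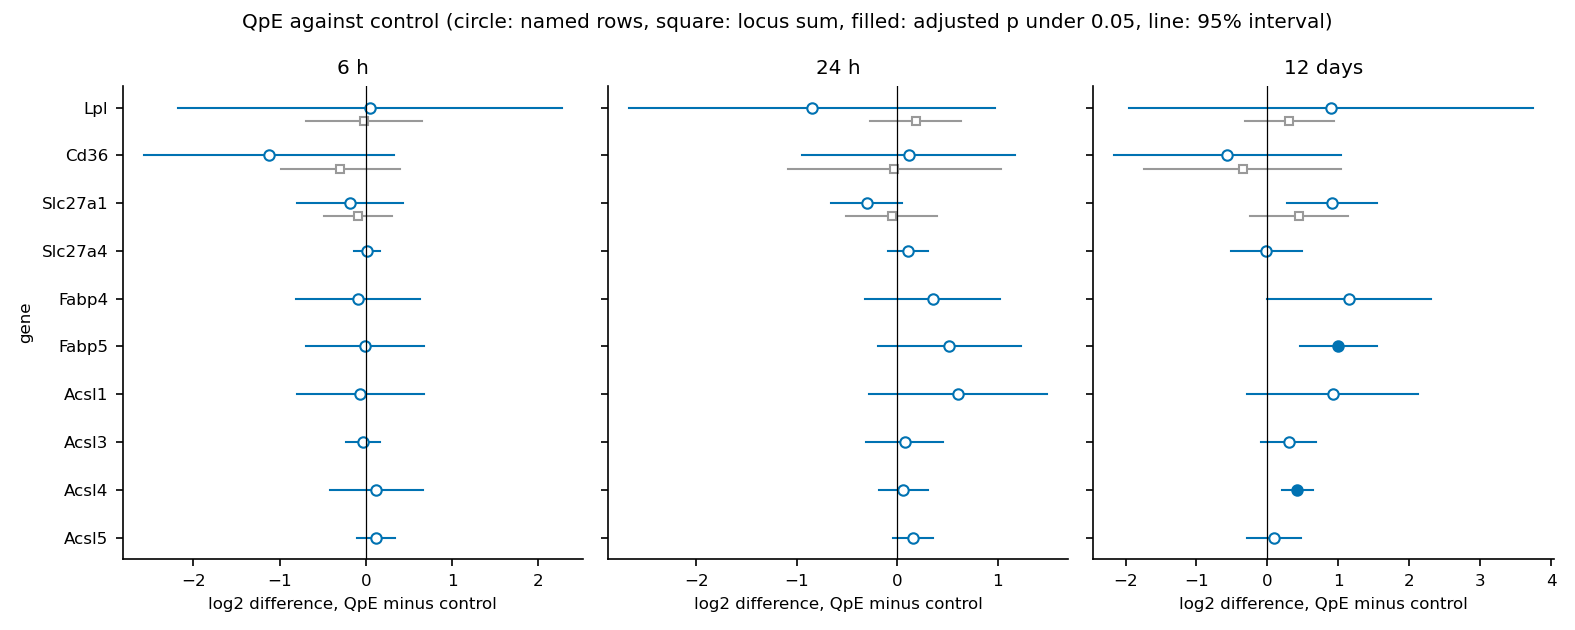
Differences of QpE minus control on the log2(FPKM + 1) scale at 6 h, 24 h and 12 days, 5 cultures a group; circles are sums of named transcripts, squares are locus sums, horizontal lines are 95% intervals, filled symbols have an adjusted p under 0.05, and the horizontal scale differs between panels. Only Fabp5 and Acsl4 have filled symbols, both at 12 days.

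Lpl (ENSMUSG00000015568, chr8:68880491-68907448, plus strand, GRCm38) encodes lipoprotein lipase. Its named transcripts read 347.0, 387.3, 279.6, 202.9 and 309.7 FPKM in control cultures 1 to 5 at 24 h, and 45.4, 136.0, 72.2, 882.5 and 26.3 FPKM at 12 days, which puts 4 of the 5 older cultures below every 24 h control. The table also holds 4 unnamed transcripts assembled over the same locus, and they carry 64.4% of its FPKM over all libraries. The most abundant of these, with 12 exons, starts at position 68849110 on chromosome 8, upstream of the annotated start of the protein-coding transcript at 68880491, and ends with it at 68906934. With them added, the same 12 day control cultures read 1905, 2272, 1515, 882.5 and 1661 FPKM, and all 5 lie above all 5 controls of 24 h.

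The Lpl locus sum rose in both arms late in the course. In controls it went from 305 ± 70.0 (SD, n = 5) at 24 h to 1647 ± 515 at 12 days, a log2 difference of +2.39 ± 0.25 (SE, adjusted p = 6.93e-05 over 14092 joined features). In QpE cultures it went from 348 ± 97.9 to 2003 ± 465, a difference of +2.52 ± 0.23 (adjusted p = 2.31e-05). The named transcripts alone gave -1.55 in controls (adjusted p = 0.211) and +0.19 in QpE cultures (adjusted p = 0.931), so the direction in controls turned on whether the unnamed rows were counted. The named transcripts passed as lower without control culture 4 of 12 days (-2.33, adjusted p = 0.00521) or without cultures 3 and 4 (-2.64, adjusted p = 0.0355).

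QpE and control did not differ in Lpl beyond the spread of the cultures. At 12 days the locus sums of QpE cultures 1 to 5 were 2305, 2175, 1225, 1939 and 2370 FPKM, overlapping the controls, with a log2 difference of +0.31 (95% interval -0.32 to 0.94, adjusted p = 0.508). At 24 h the difference in locus sum was +0.18 (-0.27 to 0.64) and at 6 h it was -0.03 (-0.70 to 0.65). The named and unnamed rows traded places within single libraries: the unnamed share was 96.8% in control culture 5 at 6 h, 95.6% in QpE culture 2 at 6 h and 97.4% in QpE culture 2 at 24 h, and at most 3.604% in every other culture of those times. At 12 days it was 94.0% or more in 7 of 10 cultures, 40.3% in QpE culture 2 and 0 in control culture 4 and QpE culture 3.

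**Figure D3:**
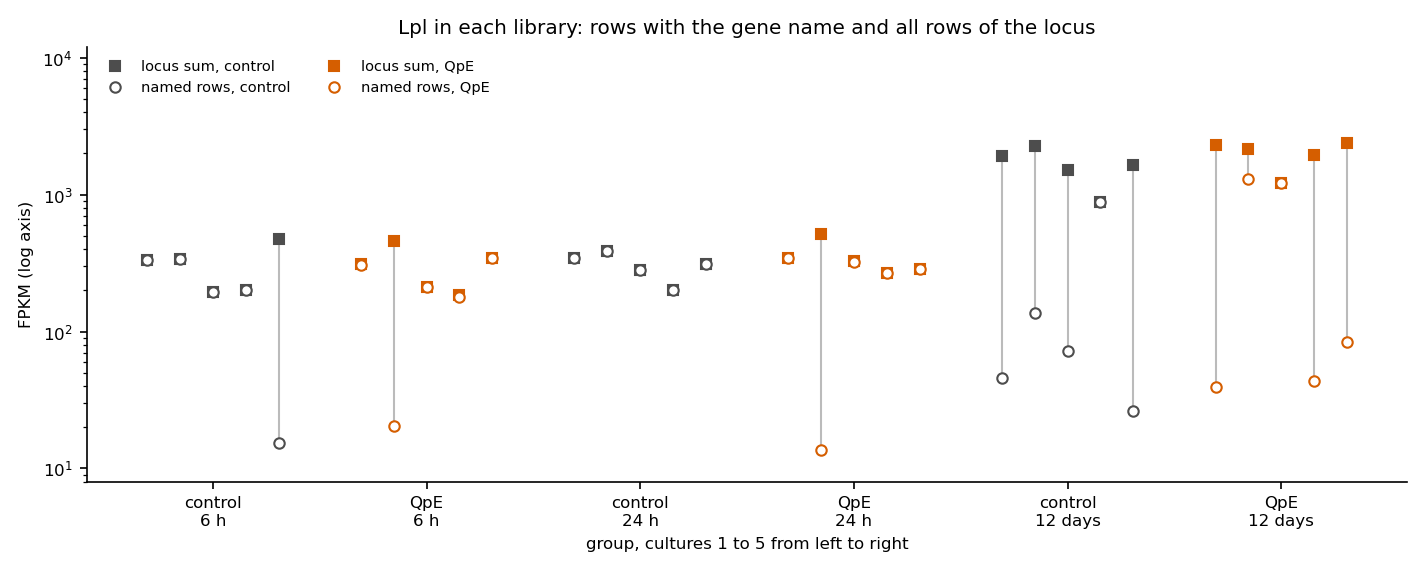
Lpl FPKM in each of the 30 libraries on a log axis, as the sum of named transcripts and as the locus sum with unnamed transcripts. The locus sums lie between 184 and 514 FPKM at 6 h and 24 h and between 883 and 2370 FPKM at 12 days, whereas the named sums drop below 140 FPKM in 10 libraries.

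Cd36 (ENSMUSG00000002944, chr5:17781690-17888801, minus strand) encodes a scavenger receptor that takes up long-chain fatty acids. It climbed through the course in both arms. Its named transcripts averaged 6.47 ± 3.71 FPKM (SD, n = 5) in controls at 6 h, 27.1 ± 15.6 at 24 h and 315 ± 235 at 12 days, and 3.17 ± 2.87, 25.3 ± 8.14 and 154 ± 73.0 in QpE cultures. Cd36 rose from 24 h to 12 days in controls (+3.17 ± 0.80, adjusted p = 0.0193) and in QpE cultures (+2.50 ± 0.32, adjusted p = 4.28e-04), and from 6 h to 24 h in QpE cultures (+3.04 ± 0.60, adjusted p = 0.00985). The control difference from 6 h to 24 h, +1.80, missed the threshold (adjusted p = 0.0571) and passed it as a locus sum (+2.12 ± 0.49, adjusted p = 0.0105) or without control culture 4 of 24 h (+2.19, adjusted p = 0.0208) or control culture 5 of 6 h.

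Mean Cd36 was lower with QpE at 12 days, but the groups overlapped. The locus sums of control cultures 1 to 5 were 571, 599, 103, 66.5 and 517 FPKM, and those of QpE cultures were 343, 268, 145, 155 and 176 FPKM. The controls thus split into 3 high and 2 low cultures, with all 5 QpE cultures between them. The log2 difference was -0.35 in the locus sum (95% interval -1.74 to 1.04, adjusted p = 0.757) and -0.56 in the named transcripts (adjusted p = 0.704). Leaving out cultures 3 and 4 of both groups gave -1.44 (adjusted p = 0.128). At 6 h, QpE cultures 4 and 5 had 0.0353 and 0.1197 FPKM in named transcripts but 2.57 and 6.54 FPKM in the locus sum.

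The promoter that RefSeq places at Cd36 is shown because transcripts used several starts. It covers chr5:17835847-17836146 on the minus strand of GRCm38.p6, 250 bases before to 50 bases after the start at 17835896. Capitals mark matches, on either strand, to the hexamer that nuclear receptors bind (AGGTCA), the GC box (GGGCGG) and the CCAAT box (CCAAT).

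Cd36 promoter: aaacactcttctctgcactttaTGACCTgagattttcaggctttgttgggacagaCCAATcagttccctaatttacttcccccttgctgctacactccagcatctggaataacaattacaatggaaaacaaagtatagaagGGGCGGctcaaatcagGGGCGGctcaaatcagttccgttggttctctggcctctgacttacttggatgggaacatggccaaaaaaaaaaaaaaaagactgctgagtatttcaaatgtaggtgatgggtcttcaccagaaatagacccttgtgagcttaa

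In the Cd36 promoter the hexamer lies on the opposite strand 228 bases before the start, and there are 2 GC boxes and 1 CCAAT box. Among 32851 RefSeq promoters of this length, 16.3% held the hexamer, 35.7% a GC box and 37.4% a CCAAT box. Nearly all Cd36 expression came from transcripts with starts between 17849729 and 17849823, upstream of this promoter, or between 17835696 and 17835717, downstream of the start it is placed on. A further start group between 17888747 and 17888801, with 2 transcripts, reached at most 0.326 FPKM, in a 12 day QpE culture. The upstream starts carried 57.8% of the locus FPKM in 24 h controls (51.4% to 66.6%) and 39.1% in 24 h QpE cultures (17.2% to 50.4%), ranges that do not overlap and were not tested. At 12 days they carried 53.6% (43.7% to 68.8%) in controls and 60.3% (50.5% to 78.3%) in QpE cultures, so the ranges overlapped there. At 6 h, where Cd36 was low, the upstream share ran from 0.380% to 34.8% in controls and from 0 to 100.0% in QpE cultures.

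Slc27a1 (ENSMUSG00000031808, chr8:71568882-71587302, plus strand) encodes fatty acid transport protein FATP1, which is recruited to the surface of fat cells by insulin. Its named transcripts averaged 6.28 ± 0.94 FPKM (SD, n = 5) in controls at 6 h, 9.77 ± 2.34 at 24 h and 10.6 ± 3.04 at 12 days, and 5.82 ± 2.62, 7.64 ± 1.29 and 21.9 ± 10.98 in QpE cultures. It rose in controls from 6 h to 24 h (+0.55 ± 0.15, adjusted p = 0.0398) and in QpE cultures from 24 h to 12 days (+1.31 ± 0.27, adjusted p = 0.00496). The first of these calls stood in 2 of 10 fits that left out 1 culture, those without control culture 2 of 6 h or control culture 1 of 24 h.

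At 12 days the named Slc27a1 transcripts read 8.67, 9.09, 10.6, 8.66 and 15.8 FPKM in control cultures 1 to 5 and 40.6, 21.6, 12.5, 16.3 and 18.6 FPKM in QpE cultures. The groups overlapped through control culture 5 and QpE culture 3, and the log2 difference of +0.91 ± 0.29 did not pass (adjusted p = 0.0961). That difference passed in 3 of 17 other settings. Unnamed transcripts held 31.2% of the FPKM of this locus. With them added the controls read 21.2, 21.7, 16.2, 16.8 and 26.96 FPKM and the QpE cultures 41.1, 48.4, 15.2, 16.5 and 33.0 FPKM, a difference of +0.45 (95% interval -0.24 to 1.13, adjusted p = 0.381). The locus sum rose in controls from 24 h to 12 days (+0.72 ± 0.17, adjusted p = 0.00826), where the named transcripts gave +0.09 (adjusted p = 0.776).

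Slc27a4 (ENSMUSG00000059316, chr2:29802634-29817522, plus strand) encodes FATP4, a transport protein of the endoplasmic reticulum with acyl-CoA synthetase activity. Its level was nearly flat, with group means between 11.3 and 14.2 FPKM. It fell in controls from 13.99 ± 0.78 FPKM at 6 h to 11.3 ± 1.24 at 24 h (-0.29 ± 0.08, adjusted p = 0.0401), and the 2 groups did not overlap. That call stood in 2 of 10 fits that left out 1 culture, those without control culture 1 or control culture 2 of 24 h. At 12 days controls read 15.9, 16.2, 11, 11.3 and 15.3 FPKM and QpE cultures 16.96, 17.9, 10.3, 8.39 and 17.5 FPKM: cultures 3 and 4 were lowest in both groups. The difference between QpE and control there was -0.02 (95% interval -0.52 to 0.49, adjusted p = 0.979).

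Fabp4 (ENSMUSG00000062515, chr3:10204088-10208576, minus strand) encodes the fat cell fatty acid binding protein aP2. It had the highest mean of the 10 genes in the 12 day QpE cultures. Controls read 2318, 1865, 539.6, 467.7 and 2645 FPKM at 12 days, and QpE cultures 3087, 2883, 2106, 2278 and 3628 FPKM. Control cultures 3 and 4 lie far below the rest, and the groups overlap because control cultures 1 and 5 exceed QpE cultures 3 and 4. The log2 difference was +1.15 ± 0.52 (95% interval -0.01 to 2.30) and did not pass (adjusted p = 0.237). That difference passed in 3 of 17 other settings, though not with the replicate block alone. Without cultures 3 and 4 of both groups it was +0.50 (adjusted p = 0.268).

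Over time Fabp4 rose from 24 h to 12 days in controls (128 ± 51.9 to 1567 ± 1010 FPKM, +3.38 ± 0.57, adjusted p = 0.00266). In QpE cultures it rose from 58.5 ± 25.9 FPKM at 6 h to 151 ± 13.8 at 24 h (+1.46 ± 0.26, adjusted p = 0.00588), and to 2796 ± 618 at 12 days (+4.18 ± 0.16, adjusted p = 1.78e-06). The 24 h QpE cultures were tight, from 138.5 to 174.3 FPKM, while the 24 h controls ran from 52.2 to 176.3 FPKM with culture 4 lowest. The control difference from 6 h to 24 h was +1.01 (adjusted p = 0.0998), or +1.30 (adjusted p = 0.0199) without control culture 4 of 24 h. Whether QpE changed the early step was tested only as QpE against control at 24 h, which gave +0.35 (95% interval -0.32 to 1.02, adjusted p = 0.818).

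Fabp5 (ENSMUSG00000027533, chr3:10012548-10016607, plus strand) encodes the epidermal fatty acid binding protein, which fat cells also make. At 12 days controls read 1097, 1029, 684.3, 513.5 and 994.3 FPKM and QpE cultures 1751, 1592, 1559, 1341 and 2172 FPKM, so every QpE culture was above every control. Fabp5 rose with QpE by +1.00 ± 0.24 (95% interval 0.46 to 1.54, adjusted p = 0.0477). The call was close to the threshold: it was lost in each of the 10 fits that left out 1 culture (adjusted p from 0.0578 to 0.102, difference from +0.83 to +1.10), and in 8 of 17 other settings. Without cultures 3 and 4 of both groups the difference was +0.81 (adjusted p = 0.107).

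Before 12 days Fabp5 overlapped between treatments. At 24 h controls read 256.5, 305.6, 146.7, 90.3 and 235.0 FPKM and QpE cultures 295.3, 353.8, 300.5, 219.0 and 215.9 FPKM, a difference of +0.52 (95% interval -0.19 to 1.23, adjusted p = 0.765). At 6 h the difference was -0.01 (95% interval -0.69 to 0.67). Fabp5 rose from 24 h to 12 days in controls (+2.13 ± 0.35, adjusted p = 0.00233) and in QpE cultures (+2.61 ± 0.18, adjusted p = 2.64e-05), and from 6 h to 24 h in QpE cultures (+1.17 ± 0.24, adjusted p = 0.0112).

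The 2 carriers traded order between the early and late times. The ratio of Fabp4 to Fabp5 FPKM averaged 0.488 in controls and 0.466 in QpE cultures at 6 h, 0.623 and 0.559 at 24 h, and 1.66 in both arms at 12 days. The 12 day controls spread from 0.789 to 2.66, with cultures 3 and 4 the only 2 below 1, and the QpE cultures from 1.35 to 1.81. The ratio of Fabp4 to Cd36, from locus sums, was 4.55, 3.50, 5.25, 7.03 and 5.13 in 12 day controls and 10.1, 12.5, 14.8, 14.7 and 22.4 in 12 day QpE cultures. At 6 h that ratio averaged 9.88 in controls and 12.2 in QpE cultures, and the ranges overlapped. At 12 days the ranges do not overlap. The ratio was formed after both genes had been seen, so it is a description without a test.

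**Figure D4:**
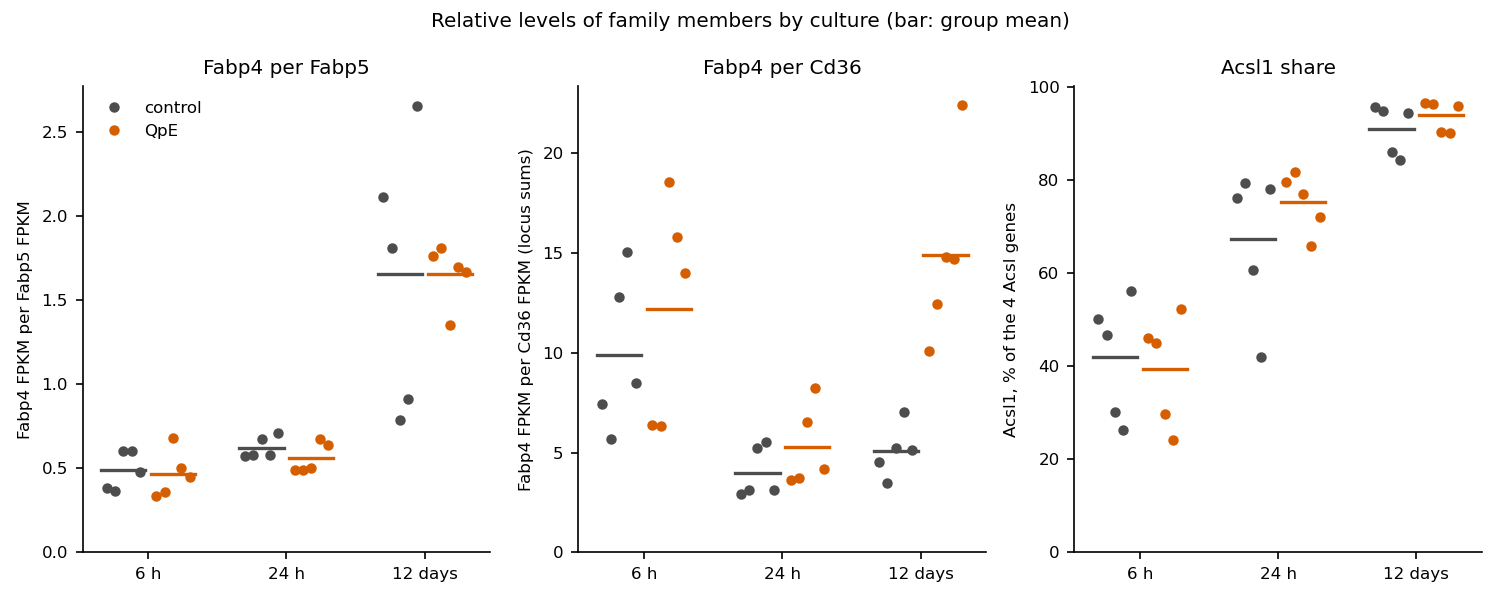
Per culture values in the 6 groups of the ratio of Fabp4 to Fabp5, the ratio of Fabp4 to Cd36 locus sums, and the share of Acsl1 in the summed FPKM of the 4 Acsl genes, with a bar at each group mean. The ratio of Fabp4 to Cd36 is 3.50 to 7.03 in 12 day controls and 10.1 to 22.4 in 12 day QpE cultures.

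Acsl1 (ENSMUSG00000018796, chr8:46471037-46536051, plus strand) encodes the main long-chain acyl-CoA synthetase of fat cells. At 12 days controls read 1019, 919.7, 261.8, 207.7 and 815.7 FPKM and QpE cultures 1596, 1446, 553.6, 578.1 and 1391 FPKM. Cultures 3 and 4 were lowest in both groups. The groups overlapped, and the difference of +0.92 ± 0.54 did not pass (95% interval -0.28 to 2.13, adjusted p = 0.368). That difference passed in 4 of 17 other settings, among them the fit with replicate number as a block. Without cultures 3 and 4 of both groups it was +0.69 (adjusted p = 0.109). At 24 h controls read 138.3, 161.5, 71.5, 35.8 and 130.9 FPKM and QpE cultures 174.0, 188.2, 166.9, 112.9 and 100.9 FPKM, a difference of +0.60 (95% interval -0.28 to 1.49, adjusted p = 0.783). At 6 h the difference was -0.06 (95% interval -0.80 to 0.67).

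Acsl1 rose with time in both arms. Controls went from 108 ± 52.1 FPKM (SD, n = 5) at 24 h to 645 ± 382 at 12 days (+2.47 ± 0.57, adjusted p = 0.0129). QpE cultures went from 43.8 ± 15.6 FPKM at 6 h to 149 ± 39.0 at 24 h (+1.78 ± 0.29, adjusted p = 0.00427) and to 1113 ± 505 at 12 days (+2.79 ± 0.35, adjusted p = 3.80e-04). The control difference from 6 h to 24 h was +1.12 (adjusted p = 0.125), and +1.46 (adjusted p = 0.0256) without control culture 4 of 24 h. Acsl1 made up 41.9% of the summed FPKM of the 4 Acsl genes in 6 h controls, 67.3% at 24 h and 91.1% at 12 days, and 39.5%, 75.3% and 94.0% in QpE cultures.

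Acsl1 has several annotated starts, and the share of its transcripts differed between 12 day cultures. For that reason 2 RefSeq promoters are shown, both on the plus strand of GRCm38.p6. The first, chr8:46470787-46471086, lies at the start that carried most of the FPKM. The second, chr8:46490716-46491015, lies at the start to which FPKM was assigned in some 12 day QpE cultures. Capitals mark the same motifs as above.

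Acsl1 first promoter: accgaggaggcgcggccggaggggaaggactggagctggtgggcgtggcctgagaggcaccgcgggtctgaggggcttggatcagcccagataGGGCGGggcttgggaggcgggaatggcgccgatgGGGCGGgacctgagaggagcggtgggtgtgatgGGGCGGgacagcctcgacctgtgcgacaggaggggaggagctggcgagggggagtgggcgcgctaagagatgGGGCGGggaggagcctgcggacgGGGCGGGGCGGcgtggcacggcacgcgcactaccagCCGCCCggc

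Acsl1 second promoter: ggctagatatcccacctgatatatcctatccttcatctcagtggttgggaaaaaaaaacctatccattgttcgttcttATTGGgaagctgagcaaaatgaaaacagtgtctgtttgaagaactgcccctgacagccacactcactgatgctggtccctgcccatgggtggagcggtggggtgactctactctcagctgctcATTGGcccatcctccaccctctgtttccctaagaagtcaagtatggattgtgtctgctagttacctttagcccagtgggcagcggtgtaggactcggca

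The first Acsl1 promoter holds 7 GC box matches, 1 of them overlapping its neighbour, and the second holds 2 CCAAT boxes on the opposite strand and no GC box. RefSeq promoters were matched for 7 of the 10 genes, 10 promoters in all. In none of the 10 windows was there the hexamer repeated with 1 base between (found in 0.0396% of all promoters), a TATAAA (13.6%) or a TTGCNNAA, the core of C/EBP sites (10.8%).

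The first Acsl1 start carried 95.5% of the locus FPKM in 12 day controls (90.0% to 98.5%) and 74.6% in 12 day QpE cultures (41.1% to 98.0%). The second start, at 46490966, carried 0.0418, 455.5, 314.2, 0 and 185.5 FPKM in QpE cultures 1 to 5, or 31.5%, 56.8% and 13.3% of the locus in cultures 2, 3 and 5. It carried at most 0.0167 FPKM in the 12 day controls, at most 9.20 FPKM or 5.70% of the locus in the 24 h controls, and 0 in the 6 h groups and the 24 h QpE cultures. The share of the most abundant Acsl1 transcript was 93.3% in 12 day controls and 72.9% in QpE cultures, which an exact permutation test over cultures did not separate (two-sided p = 0.0873, adjusted p = 0.210 over 12 such tests, smallest p possible 0.00794). None of the 12 tests, on the genes with a second transcript of 5% or more, passed. FPKM was thus assigned to the second start in 3 of the 5 QpE cultures. How the assembly divided FPKM among the transcripts of a locus was not tested, so a change of start is not shown. At the Lpl locus the share of unnamed transcripts ran from 0 to 98.4% among the 12 day controls.

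**Figure D5:**
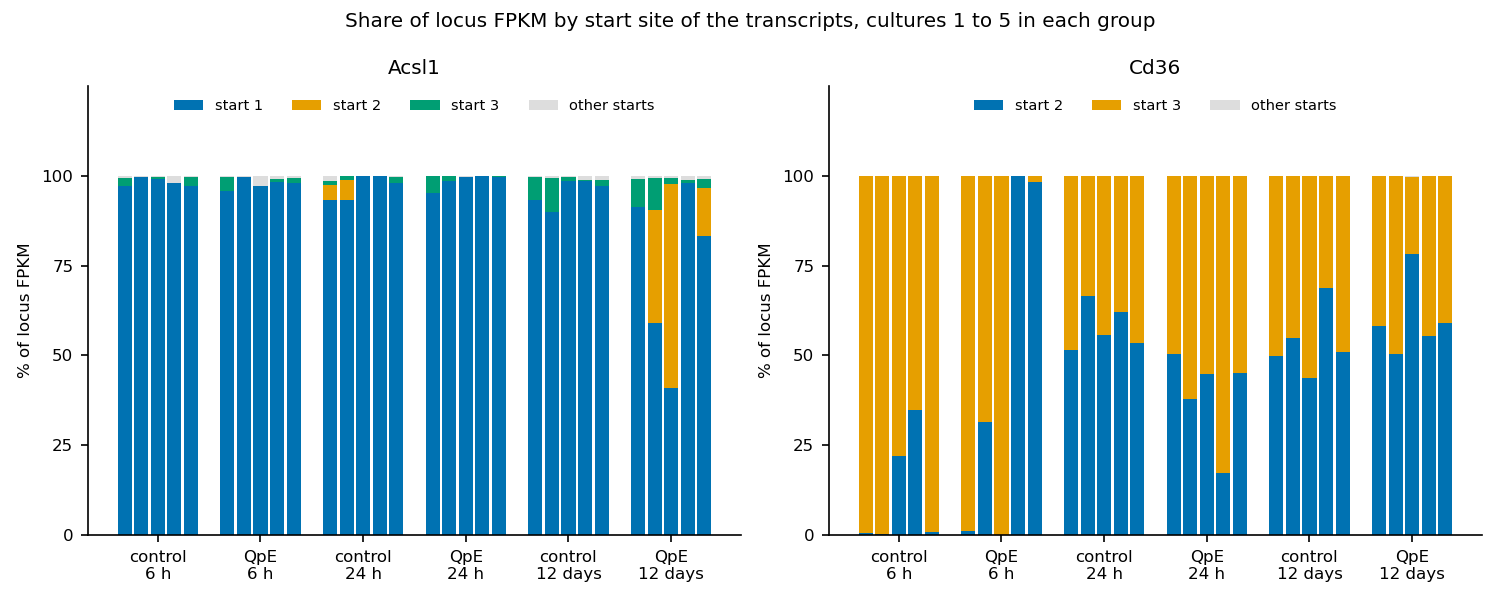
Share of the locus FPKM carried by transcripts from each start group, per culture in the 6 groups, for Acsl1 starts 1 to 3, numbered along the gene from 46471037, and for the upstream (start 2) and downstream (start 3) Cd36 starts. The second Acsl1 start reaches 13.3% to 56.8% in 3 of 5 QpE cultures at 12 days and no more than 5.70% in any other culture.

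Acsl4 (ENSMUSG00000031278, chrX:142317993-142390535, minus strand) encodes a synthetase that prefers arachidonic acid and is known for its part in ferroptosis. Its time course differed from that of Acsl1. Acsl4 fell from 6 h to 24 h in controls (35.6 ± 12.0 to 19.7 ± 2.50 FPKM, -0.77 ± 0.19, adjusted p = 0.0308) and in QpE cultures (38.4 ± 11.3 to 20.6 ± 2.51 FPKM, -0.83 ± 0.18, adjusted p = 0.0146). At 12 days controls read 22.4, 24.4, 22.8, 21.5 and 21.3 FPKM and QpE cultures 28.1, 26.1, 33.0, 36.3 and 29.4 FPKM, with no overlap.

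Acsl4 rose with QpE at 12 days by +0.42 ± 0.10 (95% interval 0.20 to 0.64, adjusted p = 0.0433), and in QpE cultures from 24 h to 12 days by +0.55 ± 0.12 (adjusted p = 0.00596). The first call stood in 1 of 10 fits that left out 1 culture, that without QpE culture 2 (adjusted p = 0.0364), with adjusted p up to 0.0975 in the others, and in 9 of 17 other settings. Without cultures 3 and 4 of both groups the difference was +0.29 (adjusted p = 0.165). Unlike Fabp4 and Acsl1, Acsl4 was highest in QpE cultures 3 and 4. The fall in controls from 6 h to 24 h stood in 4 of 10 such fits.

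Acsl3 (ENSMUSG00000032883, chr1:78657825-78707743, plus strand) encodes a synthetase of the endoplasmic reticulum and of nascent lipid droplets. It passed in no comparison, with group means between 14.9 and 20.3 FPKM. At 12 days controls read 17.6, 19.7, 13.4, 11.2 and 21.5 FPKM and QpE cultures 22.1, 20.1, 19.1, 16.9 and 23.2 FPKM, a difference of +0.30 (95% interval -0.09 to 0.69, adjusted p = 0.370). The 2 lowest values were again those of control cultures 3 and 4.

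Acsl5 (ENSMUSG00000024981, chr19:55251938-55297720, plus strand) encodes a synthetase of mitochondria and the endoplasmic reticulum. It had the lowest mean of the 4 synthetases in every group. Acsl5 fell from 24 h to 12 days in controls, from 8.85 ± 0.65 to 5.97 ± 0.17 FPKM (-0.50 ± 0.07, adjusted p = 0.00147), with no overlap. It fell in QpE cultures too, from 10.0 ± 1.23 to 6.61 ± 1.89 FPKM (-0.56 ± 0.18, adjusted p = 0.0379), a call that stood only without QpE culture 3 or QpE culture 4 of 12 days among 10 fits that left out 1 culture. At 12 days the controls lay between 5.76 and 6.16 FPKM, while QpE cultures read 5.21, 7.15, 7.17, 9.17 and 4.35 FPKM, a difference of +0.09 (95% interval -0.29 to 0.47, adjusted p = 0.806).

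At 12 days in QpE cultures the order of the genes by mean FPKM was Fabp4 (2796), Lpl as a locus sum (2003), Fabp5 (1683), Acsl1 (1113), Cd36 as a locus sum (218), Slc27a1 as a locus sum (30.8), Acsl4 (30.6), Acsl3 (20.3), Slc27a4 (14.2) and Acsl5 (6.61). Neighbours in this order overlap in range, except that Acsl1, at 554 FPKM or more, lies above every Cd36 value, Cd36, at 145 FPKM or more, above every Slc27a1 value, and Acsl4, at 26.1 FPKM or more, above every Acsl3 value. At 6 h in controls Lpl led as a locus sum (309), followed by Fabp5 (129), Fabp4 (60.8), Acsl1 (45.6) and Acsl4 (35.6). The Lpl locus was at 184 FPKM or more in every culture of 6 h, where Fabp4 reached at most 99.2 FPKM.

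Leaving out cultures 3 and 4 of each compared group, which leaves 3 against 3, gave 0 genes higher with QpE at 12 days, 6 higher and 2 lower in controls from 24 h to 12 days, and 8 higher and 1 lower in QpE cultures from 24 h to 12 days. For 6 h to 24 h it gave 2 higher, Cd36 and Acsl1, and 0 lower in controls. In QpE cultures it gave Acsl1 alone (+1.45, adjusted p = 0.0490). Cd36 (+3.09, adjusted p = 0.103), Fabp4 (+1.52, adjusted p = 0.102), Fabp5 (+1.03, adjusted p = 0.157) and Acsl4 (-0.67, adjusted p = 0.063) no longer passed. With all 5 cultures a group those 4 differences were +3.04, +1.46, +1.17 and -0.83. Cultures 3 and 4 had been picked from levels of Fabp4, Fabp5, Acsl1 and Cd36 in these data. Fewer cultures alone can raise p, and their part in the lost calls was not tested. Shares of all features for these fits of 3 against 3 are not given here, so these counts stand without a background. The fibroblast and fat cell marker sums given above move with the 12 day differences between QpE and control, and their part in those differences was not tested. Of the 6 fat cell markers tested 0 passed between QpE and control at 12 days, all 6 had a positive difference, and their median difference was +0.94. The remaining marker, Lep, was not tested, and its mean was 0.316 FPKM in 12 day controls and 0.0408 FPKM in 12 day QpE cultures. With the replicate number as a block 3 of the 6 tested markers passed as higher, and the 2 fibroblast calls that follow were lost. In that fit 2.03% of all features were higher and 1.74% lower. Of 7 fibroblast markers 2 fell: Dlk1, an inhibitor of fat cell formation, from 674 to 233 FPKM (-1.67 ± 0.32, adjusted p = 0.0294), and the collagen Col1a1 from 1050.0 to 330 FPKM (-1.87 ± 0.41, adjusted p = 0.0356). Of those 7 markers 0 had a positive difference, and their median difference was -1.67.

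The rest of the pathway was described through 4 gene lists. With QpE at 12 days the list of other transport proteins and synthetases had 1 of 5 tested genes higher and 0 lower, that of lipase partners and lipoprotein receptors 1 higher and 1 lower of 14, and those of membrane uptake and of acyl-CoA binding proteins and thioesterases 0 of 14 and 0 of 13, where 2.13% of all features were higher and 2.73% lower. Acsf2, a mitochondrial acyl-CoA synthetase family member, rose from 18.9 to 36.0 FPKM (+0.87 ± 0.21, adjusted p = 0.0475). Sel1l, which helps lipoprotein lipase leave the endoplasmic reticulum, rose from 31.0 to 45.0 FPKM (+0.52 ± 0.12, adjusted p = 0.0409). The lysosomal lipase Lipa fell from 77.9 to 49.0 FPKM (-0.66 ± 0.08, adjusted p = 0.0143). At 6 h and 24 h 0 genes of the 4 lists passed in limma, and 0 did in the interaction.

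Early in the course 4 genes of caveolae fell in both arms, while Cavin2 did not pass (+0.07 in controls, adjusted p = 0.811, and +0.02 in QpE cultures, adjusted p = 0.932). In the membrane uptake list 1 gene rose and 4 fell from 6 h to 24 h in controls, and 2 rose and 4 fell in QpE cultures, of 14 tested, where 5.62% and 6.58% of all features were higher and 6.79% and 6.25% lower. Cav1, the main structural protein of caveolae, fell from 455 to 99.4 FPKM in controls (-2.08 ± 0.28, adjusted p = 0.00200) and from 365 to 113 FPKM in QpE cultures (-1.63 ± 0.30, adjusted p = 0.00778). Cavin1, Cav2 and Cavin3 fell as well, by -0.82, -0.52 and -0.47 in controls and by -0.89, -0.58 and -0.43 in QpE cultures. Lyplal1, a lysophospholipase-like protein, rose by +0.62 in both arms, and the cholesterol ester receptor Scarb1 rose by +0.68 in QpE cultures. In the other lists Acss2, which activates acetate, rose by +0.59 in controls and +0.56 in QpE cultures, and the thioesterase Acot13 rose by +0.43 and +0.61. Furin, a protease that can cleave lipoprotein lipase, fell by -0.79 in controls, and the thioesterase Acot9 fell by -0.41 in QpE cultures.

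Late in the course several genes that bind or cleave acyl-CoA rose. From 24 h to 12 days 5 rose and 2 fell of the 13 acyl-CoA binding proteins and thioesterases in controls, and 6 rose and 1 fell in QpE cultures. Over all features 8.11% were higher and 12.3% lower in controls, and 11.8% and 17.5% in QpE cultures, and several of the list counts below, such as that of the lipase partners in controls, lie near those shares. Dbi, the acyl-CoA binding protein, rose from 169 to 415 FPKM in controls (+1.23 ± 0.20, adjusted p = 0.00250) and from 214 to 614 FPKM in QpE cultures (+1.53 ± 0.15, adjusted p = 1.05e-04). Acot2, a mitochondrial thioesterase, rose by +1.81 and +2.12, and Scp2, a peroxisomal lipid carrier, by +1.27 and +1.19. Acot7 fell by -0.34 in controls and -1.01 in QpE cultures. Of the lipase partners, 2 rose and 1 fell in controls and 3 rose and 5 fell in QpE cultures, of 14: the apolipoproteins Apoc1 and Apoe rose by +1.35 and +1.02 in controls and by +2.33 and +1.20 in QpE cultures, while Sdc1, a heparan sulfate proteoglycan, fell by -0.96 in QpE cultures. In the membrane uptake list 1 gene rose and 0 fell in controls and 6 rose and 1 fell in QpE cultures, with Ffar2, Scarb1 and Cav2 at +2.33, +2.25 and +1.53 in QpE cultures and Cav2 at +1.55 in controls. Of 5 other transport proteins and synthetases, 1 rose in controls (Acss2, +1.45) and 4 in QpE cultures: Acss2 (+1.69), Aacs (+1.42), Acsf3 (+1.17) and Acsf2 (+1.15).

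Other members of these families reached 1 FPKM in fewer than 5 libraries and were not tested. The highest FPKM over the 30 libraries was 2.18 for Fabp3, 0.177 for Fabp7, 0.0806 for Slc27a2, 0.0966 for Slc27a5, 0.0471 for Acsl6, 3.10 for Acsbg1 and 0.315 for Gpihbp1, which anchors lipoprotein lipase to capillaries, and 0 for Fabp1, Fabp6 and Slc27a6.

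Across the 30 libraries Fabp4, Fabp5, Acsl1, Cd36 and Lpl followed each other. Pearson's r of log2(FPKM + 1) was 0.981 between Fabp4 and Fabp5 and 0.978 between Fabp5 and Acsl1, and, with unnamed transcripts joined, 0.963 between Cd36 and Acsl1 and 0.940 between Lpl and Fabp4. With named transcripts alone r between Lpl and Fabp4 was -0.139. Acsl5 ran opposite to Acsl1 (-0.853), and Acsl4 was weakly related to Acsl1 (-0.328). All libraries share the time course, so these values describe it and were not tested.

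The named genes most like each gene over the 30 libraries, out of 12733, were chosen by the highest r. They were Coq5 (0.987), Pnpla2 (0.984) and Acadl (0.983) for Fabp4, and Dgat2 (0.990), Cidec (0.982) and Cat (0.981) for Acsl1. Adipoq (0.944), Dhrs7 (0.942) and Gpd1 (0.929) came closest to Cd36. For Fabp5 the nearest was Gm6166 (0.994), annotated as a processed pseudogene at chr9:57483963-57484371, followed by Pnpla2 (0.981) and Dgat1 (0.979). How the counting divided reads between Fabp5 and such a copy is not given in the sources used here, so their levels may share reads. Sqle (0.840), Fdps (0.805) and Gm3571 (0.802) came closest to Acsl3, Synj2 (0.910), Arl4d (0.882) and Fermt2 (0.875) to Acsl4, and Exoc1 (0.931), Ikbkap (0.916) and Dcaf7 (0.915) to Acsl5. For Slc27a1 the nearest were Snx10 (0.842), Cyth1 (0.829) and Shpk (0.824), for Slc27a4 Hp (0.881), CAAA01118383.1 (0.848) and Hdhd3 (0.837), and for the named Lpl transcripts AI987944 (0.605), Zfp13 (0.580) and Gm8624 (0.564).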

How the data were processed

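mRNA of 30 cultures was sequenced as paired 75 base reads with a strand-marking kit, per the labels' protocols. The authors deposited 1 table of FPKM per transcript, made with HISAT, HISAT2 and StringTie on GRCm38, per the submitters' processing notes; the sources used here give neither versions nor the use of strand in counting. In 10 of the deposited columns, 11 FPKM values were slightly negative (lowest -7e-05) and were set to 0. FPKM of named transcripts were summed per gene. Features with 1 FPKM in at least 5 libraries (18035, of which 12744 named) were tested on log2(FPKM + 1) with limma 3.58.1 (R 4.3.3, trended variance), only the 2 groups compared entering each fit, two-sided, at an adjusted p of 0.05. Locus sums add unnamed transcripts to the leading named gene (14092 features). All 10 genes are named; of the other lists, genes that passed, at most 4 per direction. The scripts were tested on simulated data. Members and lists were chosen with earlier results of these data known. Named transcripts matched GENCODE vM21. Alternatives were other fits, filters, scalings, pseudocounts and left-out cultures. Some genes of the pathway lists are not reported here.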

Additional observations from a re-analysis of the deposited data

Results flagged for a closer look

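In 3 groups 1 culture lay far below the other 4 in the named Lpl transcripts: 15.39 FPKM in control culture 5 at 6 h against 193.3 to 340.1 in the others, 20.42 FPKM in QpE culture 2 at 6 h against 177.8 to 342.1, and 13.52 FPKM in QpE culture 2 at 24 h against 267.6 to 345.7. The locus sums that include unnamed transcripts were 477.5, 461.1 and 514.0 FPKM in the same cultures. Unnamed transcripts held 96.8%, 95.6% and 97.4% of the locus FPKM there, and at most 3.604% in every other culture of 6 h and 24 h. The gaps are thus in the named rows and not in the locus sums. A gap of this relative size was looked for in 60 sets of 5 values, the 10 genes in each of the 6 groups. Chance gives about 1 in 20, so some such gaps are expected among 60 sets.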

How the results depend on the processing

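Calls of Fabp5, Acsl4 and the early controls depended on the settings, and the late rises mostly did not. Higher with QpE at 12 days were 2 genes, and 5 with the replicate block in a fit of all 30 libraries, 1 with weights per group, log2(FPKM + 0.1), median-ratio scaling or quantile normalization, and 0 with no filter, TPM, the most abundant transcript alone or cultures 3 and 4 left out (added after seeing the data, like the joins to the leading gene, with the block and in all 30 libraries). Leaving out 1 culture gave 0 to 1. In controls from 6 h to 24 h, 1 higher became 0 (all 30 libraries, no filter, TPM, most abundant transcript), 2 (block in all 30, stricter filter, either join, cultures 3 and 4 left out) or 3 (replicate block, also with either join), and 0 to 3 without 1 culture; 2 lower became 1 (all 30, also with the join, block, block in all 30, weights, median-ratio) or 0 (no filter, most abundant transcript, cultures 3 and 4 left out), and 0 to 1. From 24 h to 12 days in controls, 4 higher became 7 with either join and the block and stayed 4 without any 1 culture, and 1 lower became 2 without cultures 3 and 4 and was 1 to 2. QpE from 6 h to 24 h, 4 higher and 1 lower, gave 1 and 0 without cultures 3 and 4 and 0 lower with the most abundant transcript, and was 4 and 1 without any 1 culture; from 24 h to 12 days, 1 lower became 0 with no filter, median-ratio or quantile scaling, and 6 higher and 1 lower were 6 to 7 and 0 to 1. The control Lpl difference from 24 h to 12 days reversed from -1.55 to 2.39 under each of the 5 joins (adjusted p from 2.58e-07 to 2.24e-04). The counts at 6 h, at 24 h and in the interaction were 0 under each of these settings. Features higher at 12 days numbered 384, from 47 to 1742 over the settings, and lower 493, from 26 to 2080. Same-numbered 12 day cultures correlated at 0.0837 to 0.209, and 1 of 5 correlated best with its own number. The bound set for pairing was 0.1 in every pair, so the numbers were not taken as pairing. With unnamed transcripts joined, all 5 correlated at 0.157 to 0.38, above that bound, 3 of them best with their own number. The adjusted p of the locus sums in the Results nevertheless come from fits without the block. In named rows at 6 h, 24 h and 12 days, each control culture correlated best with a QpE culture of its own set. These sets were cultures 1, 2 and 5 and cultures 3 and 4, and the main fits do not model them. At 12 days Fabp4, Fabp5, Acsl1, Acsl3 and Acsl4 were higher with QpE in 5 of 5 same-numbered cultures, by named rows and by locus sums. Slc27a1 was higher in 5 of 5 by named rows and in 3 of 5 by locus sums. The share of all features higher in 5 of 5 was not counted. With the replicate block in limma 2 genes were higher with QpE at 12 days, where 2.03% of all features were higher. Adjusted p was 0.0464 for Acsl1, 0.0464 for Fabp5, 0.0726 for Acsl4 and 0.111 for Fabp4. With a join as well, 3 or 4 were higher, depending on the join, with Fabp4 at 0.0601 or 0.0426. Over all features 8.78% or 10% were higher in those fits. The block also gave 3 fat cell markers higher and 0 fibroblast markers lower, in place of 0 and 2, and 2 membrane uptake genes and 1 acyl-CoA binding protein or thioesterase higher, in place of 0 and 0. Acsf2 (adjusted p = 0.0912) and Sel1l (0.0829) did not pass with it, and Lipa did (0.0453). Of 2392 differences under these settings, 91 changed sign with neither value called. Depth, estimated at 9500000 to 17500000 fragments, limits genes near 1 FPKM.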
